A study of Mus musculus with 16 samples.

Results

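CD4+ T cells of the spleen that lacked NEMO were compared with CD4+ T cells that lacked IKK2, both taken from mice with immune-mediated kidney disease. The arrays were chosen by their sample titles alone, as the 2 NEMO knockout arrays with nephritis and the 3 IKK2 knockout arrays with nephritis, 5 of the 16 arrays of the series. NEMO knockout mice carried a Cre recombinase driven by the CD4 promoter together with floxed alleles of Ikbkg (NEMO), and IKK2 knockout mice carried CD4-Cre together with floxed alleles of Ikbkb (IKK2fl/fl). Cre control mice, with 3 arrays under nephritis, carried CD4-Cre without a floxed gene, so all groups shared the Cre transgene. All mice were males of 8 to 10 weeks that had received sheep serum directed against the kidney (2.5 mg per g of body weight, intraperitoneally), and their spleens were taken on day 10. Untreated groups held 2 NEMO knockout, 3 IKK2 knockout and 3 Cre control arrays. The CD4 promoter is active from the stage of thymus development at which CD4 appears, so the floxed gene is lost in the T cells that pass this stage, and the labels state that deletion was checked by PCR on sorted spleen cells. Whether arrays of the same group stem from different mice is not stated, so the p-values reflect only how far these samples spread, possibly for technical reasons.

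NF-kB transcription factors are held in the cytoplasm by IkB proteins until the IkB kinase complex marks these for destruction. The complex joins the kinases IKK1 and IKK2 to the regulatory subunit NEMO, which ties it to ubiquitin chains built at receptors. This canonical pathway carries signals of the T cell receptor and of inflammatory cytokines to genes for growth, survival and cytokines. The noncanonical pathway needs neither NEMO nor IKK2: the kinase NIK activates IKK1, the precursor protein made from Nfkb2 is cut, and RelB enters the nucleus. Loss of IKK2 leaves IKK1 to serve the canonical pathway in part, whereas loss of NEMO removes the shared scaffold, and T cells without NEMO are known to be few in the periphery of mice.

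Values are log2 intensities after subtraction of each array's 75th percentile, so a level of 0 lies at that percentile, and differences are NEMO knockout minus IKK2 knockout on the log2 scale. The 2 NEMO knockout arrays lay on slide 3 and the 3 IKK2 knockout arrays on slide 1, together with the nephritic Cre control arrays, and the slides were scanned at different times. No slide held arrays of both knockouts, so slide and genotype cannot be told apart in any difference given here and no within-slide value exists. The net signal of the negative control spots was 16.4 to 17.7 intensity units on slide 3, against 40.5 to 46.0 on slide 1. Of the spots on each array, 58.7% to 59.8% were well above background in NEMO knockout arrays and 50.8% to 57.1% in IKK2 knockout arrays. The number of arrays limits the precision, with a median SE of 0.15 over all genes.

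The label was checked against T cell genes. Cd4, the co-receptor that defines the sorted cells, read 5.94 and 5.99 in NEMO knockout arrays, against 6.07, 5.86 and 5.90 in IKK2 knockout arrays, and the groups overlapped. A dimmer second Cd4 probe gave a difference of -0.49 (SE 0.14). Cd3e, an invariant chain of the T cell receptor complex, read 6.88 and 6.71 in NEMO knockout arrays, against 7.02, 6.88 and 7.11 in IKK2 knockout arrays, with a difference of -0.20 (SE 0.11) that did not pass. Cd8b1, a chain of the CD8 co-receptor, fell by 1.27 (SE 0.18) in the NEMO knockout, and Cd8a, the other chain, read -2.13 and -2.32 in NEMO knockout arrays, against -3.58, -2.93 and -3.76 in IKK2 knockout arrays and did not pass. In bulk samples fewer cells of a type and less RNA per cell cannot be told apart.

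The targeted genes were then measured. Ikbkb read 2.78 and 2.86 in NEMO knockout arrays, against 3.02, 2.95 and 2.91 in IKK2 knockout arrays, a difference of -0.14 (SE 0.12) with adjusted p = 0.363 in limma. The 2 NEMO knockout arrays lay below the 3 IKK2 knockout arrays, and the nephritic Cre controls above both, at 3.27, 3.45 and 3.18. Ikbkg read -0.71 and -0.59 in NEMO knockout arrays, against -0.33, -0.53 and -0.36 in IKK2 knockout arrays, a difference of -0.24 (SE 0.11) that did not pass either (adjusted p = 0.0822). A dimmer second probe of the same gene read -1.62 and -1.51 in NEMO knockout arrays, against -1.57, -1.92 and -1.93 in IKK2 knockout arrays. The brighter Ikbkg probe was thus lower in both NEMO knockout arrays and the dimmer one overlapped. Exact two-sided permutation tests over 2 against 3 arrays gave p = 0.2 for Ikbkb and for the brighter Ikbkg probe and p = 0.4 for the dimmer one, where 0.2 is the smallest value this design allows. Where the probes lie relative to the excised exons is not known from the sources used here, and only a probe within those exons could check the deletion.

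Both knockouts differed across much of the transcriptome. Of 14675 genes tested, 6767 (46.1%) passed an adjusted p of 0.05 in limma's model, 2783 higher in the NEMO knockout (19.0% of all genes) and 3984 lower (27.1%). Differences of at least 2-fold were found for 1439 higher genes (9.81%) and 1079 lower genes (7.35%), and of at least 8-fold for 147 higher and 75 lower genes. So lower genes were more numerous and large rises outnumbered large falls. The excess of lower genes depended on the scaling. Quantile normalization gave 3311 higher and 3504 lower genes, and the authors' deposited matrix 2947 and 3124. Without NEMO knockout replicate 2 the counts were 2024 higher and 2571 lower genes, and without replicate 1 they were 2020 and 2795. The median difference over all genes was -0.10, and the arrays of both groups did not overlap in 72.8% of all genes. Across genes, levels correlated at 0.993 between the NEMO knockout arrays, at 0.992 between the IKK2 knockout arrays and at 0.949 to 0.963 between arrays of the 2 knockouts.

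**Figure D1:**
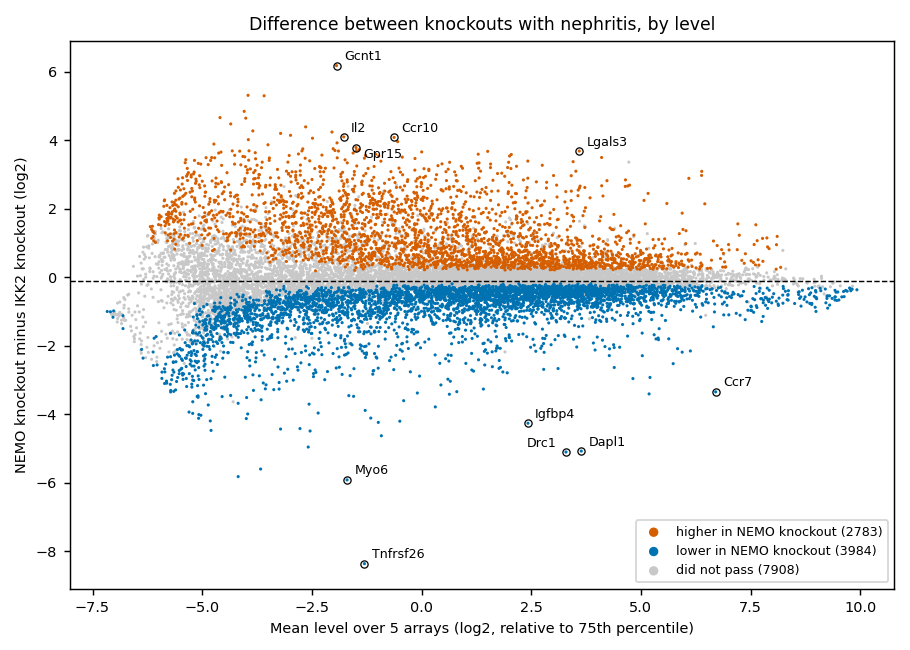
Difference between NEMO knockout and IKK2 knockout arrays with nephritis (log2, vertical axis) against the mean level over the 5 arrays (log2 relative to the 75th percentile of each array, horizontal axis), 1 point per gene for 14675 genes. Orange points mark the 2783 genes past an adjusted p of 0.05 that were higher in the NEMO knockout, blue points the 3984 lower ones and grey points the rest, with a dashed line at the median of -0.10; called genes lie at all levels, and the named genes are among those with the largest differences.

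Markers of other cell types were compared before the T cell genes, since a sort can carry other cells. The levels of a list were summed on the linear scale over its members. Marker counts stand beside 19.0% higher and 27.1% lower among all genes. Of 11 macrophage and monocyte markers 4 were higher and none lower, with a summed level of 54.1 to 55.6 in NEMO knockout arrays and 16.8 to 28.3 in IKK2 knockout arrays, against 3.77 to 21.9 in nephritic Cre controls. 11 CD8 and NK cell markers held 6 higher and 2 lower members and summed to 64.1 to 67.9 in NEMO knockout and 22.5 to 43.4 in IKK2 knockout arrays. Of 8 plasma cell markers 7 were higher and none lower, and they summed to 56.2 to 101 in NEMO knockout and 27.5 to 33.7 in IKK2 knockout arrays. On all 3 lists both NEMO knockout arrays lay above every IKK2 knockout array. B cell markers (16 genes) held no higher and 3 lower members, yet their sum was 293 to 312 in NEMO knockout and 138 to 201 in IKK2 knockout arrays, and the class II gene H2-Ab1 differed by 0.98 and did not pass. Pax5, the master factor of B cells, was not well above background on either NEMO knockout array, and Tnfrsf17, the BCMA receptor of plasma cells, on no IKK2 knockout array. Of 9 dendritic cell markers 2 were higher (261 to 272 in NEMO knockout and 229.9 to 258 in IKK2 knockout arrays in sum), and of 11 neutrophil markers 1, the receptor gene Csf3r, was lower by 0.58 and none higher (sums of 226 to 292 and 291 to 390.4). None of 8 erythroid markers (sums of 85.4 to 179 in NEMO knockout and 94.7 to 126 in IKK2 knockout arrays) and none of 8 platelet markers (4.55 to 5.48 and 3.22 to 6.93) passed. The part of these cells in the differences below was not tested. These counts rested on few arrays: without NEMO knockout replicate 1 the higher plasma cell markers numbered 3, without replicate 2 the higher CD8 and NK cell markers numbered 2 and the lower B cell markers 0 (as without IKK2 knockout replicate 3, and 1 without its replicate 2), and the higher macrophage and monocyte markers numbered 2 without any 1 array except IKK2 knockout replicate 2. The higher dendritic cell markers numbered 1 without any 1 array except IKK2 knockout replicate 3. With normexp background correction 3 B cell markers and 7 macrophage and monocyte markers were higher, and in the authors' deposited matrix 8 macrophage and monocyte markers were. Csf3r did not pass with quantile normalization (-0.19) or in that matrix (-0.23). Pax5, a lower B cell marker, did not pass with normexp (-0.46), quantile normalization (-1.0) or that matrix (-0.045).

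**Figure D2:**
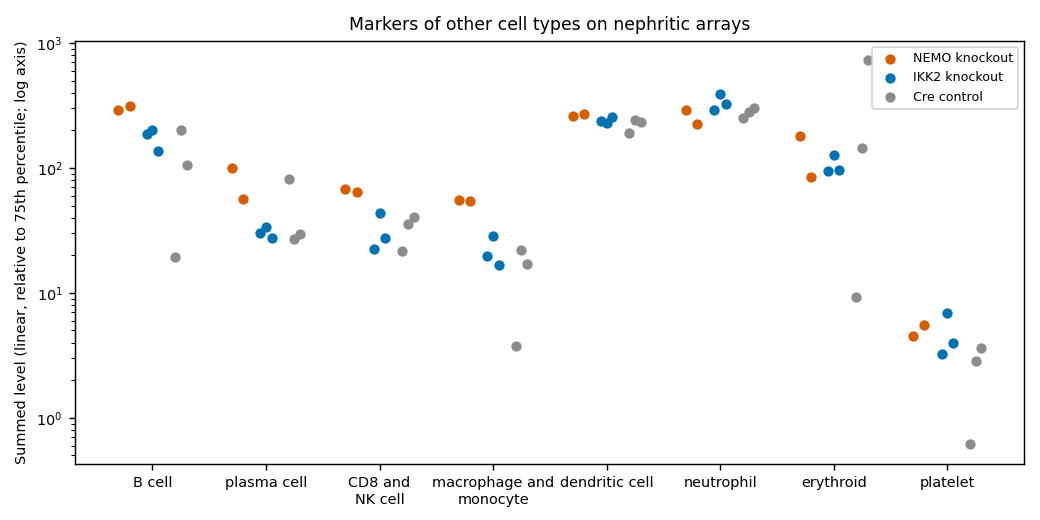
Summed level of the markers of each of 8 other cell types (vertical axis, linear intensity relative to the 75th percentile of each array, log axis) in the nephritic arrays, 1 point per array, with NEMO knockout arrays (orange) left of IKK2 knockout arrays (blue) and Cre controls (grey). NEMO knockout arrays lie above IKK2 knockout arrays for B cell, plasma cell, CD8 and NK cell, macrophage and dendritic cell markers, and the groups overlap for neutrophil, erythroid and platelet markers.

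The largest differences were followed by array. Gcnt1, a glycosyltransferase that builds core O-glycans on activated T cells, read 1.76 and 1.77 in NEMO knockout arrays, against -3.84, -5.12 and -4.27 in IKK2 knockout arrays. Its difference of 6.17 (SE 0.77) was the largest rise among genes well above background in both groups, and a second probe gave 2.59. Il2, the T cell growth factor, read 0.70 and 0.66 in NEMO knockout arrays, against -2.71, -4.08 and -3.45 in IKK2 knockout arrays, a difference of 4.09 (SE 0.32) with adjusted p = 2.47e-06. Every NEMO knockout array lay above every IKK2 knockout array for both genes. Ccr10, a receptor for skin and mucosal chemokines, was higher by 4.08 (SE 0.57), and Gpr15, a receptor that guides T cells to the large intestine, by 3.78 (SE 0.35). The other members of the 12 largest rises were Klf12 (4.14), a transcriptional repressor, Mal (3.92), a protein of membrane rafts, Plcd1 (3.95), a phospholipase C, Dlg5 (3.75), a scaffold protein, Fxyd4 (3.86), a regulator of the sodium pump, Lancl3 (4.38), 4933402N22Rik (4.24) and Speer2 (4.05). Mal (3.31) did not pass without NEMO knockout replicate 1, and second probes gave 2.12 for Lancl3 and 2.54 for 4933402N22Rik. Sizes depend on how background is removed: normexp correction with its offset gave 3.71 for Gcnt1, 2.68 for Il2, 2.52 for 4933402N22Rik and 2.41 for Gpr15. It gave 2.19 for Mal, 2.09 for Dlg5, 2.07 for Lancl3, 2.06 for Speer2, 2.0 for Klf12 and 1.43 for Fxyd4.

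Among the falls, Myo6, an unconventional myosin, read -4.60 and -5.89 in NEMO knockout arrays, against 0.64, 0.80 and 0.57 in IKK2 knockout arrays. Dapl1, which marks naive T cells, read 1.12 and 0.068 in NEMO knockout arrays, against 5.49, 5.55 and 5.97 in IKK2 knockout arrays, and Igfbp4, a binding protein of insulin-like growth factors, read 0.33 and -0.59 in NEMO knockout arrays, against 4.08, 4.16 and 4.16 in IKK2 knockout arrays. No NEMO knockout array came near the IKK2 knockout arrays for these genes, whose falls were 5.92 (SE 0.35), 5.07 (SE 0.33) and 4.26 (SE 0.20). The other 9 of the 12 largest falls were Drc1 (5.10), Cxcr1 (4.96), Adh1 (4.63), Pomgnt2 (4.49), Fut10 (4.42), Fam240a (4.24), Aldh1l1 (4.20), Ldhd (4.11) and Grm6 (3.96). They include enzymes of alcohol (Adh1), folate (Aldh1l1) and lactate (Ldhd) metabolism and the glycosyltransferases Pomgnt2 and Fut10. With normexp correction several falls were smaller, at -3.43 for Myo6, -2.73 for Ldhd, -2.47 for Cxcr1, -2.11 for Grm6, -1.94 for Fut10 and -1.91 for Pomgnt2.

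For genes whose probes were not well above background in 1 group, only a bound can be given, and it holds only for the processed signal used here. Tnfrsf26, a TNF receptor family member of unclear function, was not well above background on either NEMO knockout array and read 1.96, 2.10 and 2.06 in IKK2 knockout arrays, at least 209-fold lower in the NEMO knockout. Untreated NEMO knockout arrays were lower as well, at -6.30 and -1.07 in untreated NEMO knockout arrays, against 2.02, 1.88 and 1.70 in untreated IKK2 knockout arrays, and the nephritic Cre controls read 2.06, 1.82 and 1.85. Dmbt1, a mucosal glycoprotein, was at least 18.9-fold lower, Myl10 at least 18.2-fold, the bile salt exporter gene Abcb11 at least 14.1-fold, Cyp2d22 at least 9.87-fold and Boll at least 9.85-fold. In the other direction, Galnt3, which starts O-glycans, was at least 20.8-fold higher, Stmn2 at least 16.2-fold, the ephrin receptor gene Epha8 at least 16-fold, Speer6-ps1 at least 11.6-fold, Apobec2 at least 11.5-fold and the basement membrane gene Nid2 at least 10.8-fold. In all, 258 higher genes were at background on every IKK2 knockout array and 195 lower genes on both NEMO knockout arrays. Other treatment of background gave differences smaller than the bounds. With normexp Tnfrsf26 stood at -4.83, Abcb11 at -1.69 and Galnt3 at 2.03. In the authors' deposited matrix they stood at -5.56, -2.15 and 3.06.

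**Figure D3:**
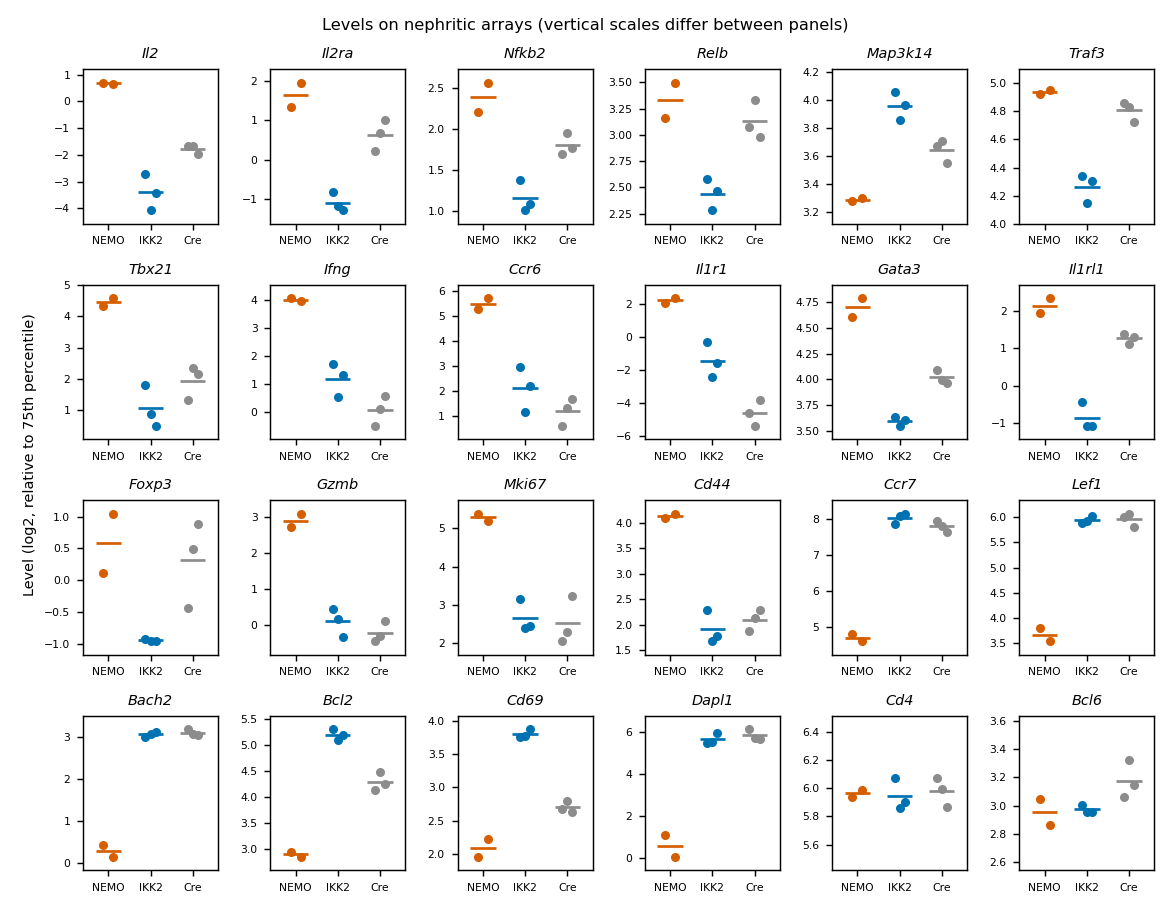
Levels (log2 intensity relative to the 75th percentile of each array) of 24 genes on each nephritic array, with NEMO knockout (orange) left of IKK2 knockout (blue) and Cre control (grey), 1 point per array and a bar at the group mean. Il2, Il2ra, Nfkb2, Relb, Tbx21, Ccr6, Gzmb and Mki67 are higher and Ccr7, Lef1, Bach2, Bcl2, Cd69 and Dapl1 lower in NEMO knockout than in IKK2 knockout arrays, without overlap, whereas Cd4 and Bcl6 overlap.

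Genes of the canonical pathway were spread in both directions. Of 26 components 7 were higher, 7 lower and 12 did not pass, with a median of -0.10, close to that of all genes. Among all genes 19.0% were higher and 27.1% lower. The higher members were Nfkbia (0.37), Nfkbib (0.55) and Tnip1 (0.35), which restrain NF-kB, Bcl10 (0.52), which links the antigen receptor to the kinase complex, the subunit gene Nfkb1 (0.41), and Tab2 (0.45) and Map3k7 (0.40), which form the kinase complex upstream of IKK2, although 2 other Map3k7 probes gave -0.089 and -0.057. The lower members were the subunit gene Rela (-0.25), the IKK-related kinase Ikbke (-0.77) and the ubiquitin ligase genes Traf6 (-0.55) and Rbck1 (-0.41). Sharpin (-0.32), the adaptor Tab1 (-0.43) and Nfkbiz (-0.79), a nuclear IkB protein, were lower too. All 14 differences of the probes used were below 2-fold. A second Nfkb1 probe gave a larger difference of 1.56 (SE 0.19), and a second Nfkbib probe a smaller one of 0.23. Nfkbia, the IkB protein that NF-kB itself induces, read 6.0 and 6.21 in NEMO knockout arrays, against 5.76, 5.75 and 5.70 in IKK2 knockout arrays, and every NEMO knockout array lay above every IKK2 knockout array. The kinase IKK1, encoded by Chuk, read 4.07 and 4.08 in NEMO knockout arrays, against 4.01, 4.06 and 4.01 in IKK2 knockout arrays, a difference of 0.048 that did not pass. Because the differences were small, single arrays decided several calls. Without NEMO knockout replicate 1 the lower members numbered 3, as Rela (-0.21), Rbck1 (-0.36), Sharpin (-0.30) and Nfkbiz (-0.60) did not pass, and neither did Tnip1 (0.38) and Tab2 (0.48) among the higher. Without replicate 2 the higher members numbered 3 and the lower 4, as Nfkbia (0.26), Tnip1 (0.32), Nfkb1 (0.31), Tab2 (0.42), Rela (-0.28), Sharpin (-0.35) and Tab1 (-0.32) did not pass. Rela (-0.24 to -0.26) and Tab2 (0.43 to 0.47) also did not pass without any 1 of the IKK2 knockout arrays, nor Nfkb1 without replicate 2 or 3 (0.40 and 0.38) or Sharpin without replicate 2 (-0.30). With normexp 4 members were lower, and Nfkb1 (0.43), Rela (-0.10), Sharpin (-0.30) and Tab1 (-0.38) did not pass, while Tnip1 stood at 0.53.

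Noncanonical components leaned upward. Of 15 tested 7 were higher, 3 lower and 5 did not pass, with a median of 0.48, beside 19.0% higher among all genes. Of the transcription factor genes, Nfkb2 read 2.21 and 2.56 in NEMO knockout arrays, against 1.38, 1.01 and 1.09 in IKK2 knockout arrays, a difference of 1.23 (SE 0.14) with adjusted p = 3.87e-05. Relb read 3.16 and 3.50 in NEMO knockout arrays, against 2.58, 2.28 and 2.46 in IKK2 knockout arrays, a difference of 0.89 (SE 0.14) with adjusted p = 0.00032. For both genes the nephritic Cre controls lay above the IKK2 knockout arrays, at 1.70, 1.96 and 1.77 for Nfkb2 and 3.07, 3.33 and 2.98 for Relb. Of the receptors that feed this pathway, Tnfrsf1b, the second TNF receptor, was higher by 1.35 (SE 0.13) and Tnfrsf4, the co-stimulatory receptor OX40, by 1.12 (SE 0.16). Cd27, another co-stimulatory receptor, fell by 1.81 (SE 0.12) and Tnfrsf12a by 0.98 (SE 0.19). The kinase and its brake moved in opposite directions: Map3k14, which encodes NIK, read 3.28 and 3.30 in NEMO knockout arrays, against 4.06, 3.86 and 3.96 in IKK2 knockout arrays and fell by 0.67 (SE 0.12). Traf3, which marks NIK for destruction, read 4.92 and 4.96 in NEMO knockout arrays, against 4.34, 4.14 and 4.31 in IKK2 knockout arrays and rose by 0.68 (SE 0.11). The NEMO knockout arrays were the lower ones for Map3k14 and the higher ones for Traf3, without overlap, and the ubiquitin ligase genes Birc2 (-0.25) and Birc3 (-0.31) did not pass.

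Most NF-kB target genes measured here were higher in the NEMO knockout. Of 29 tested, 20 were higher, 1 was lower and 8 did not pass, and the median was 0.79, where 19.0% of all genes were higher and 27.1% lower. Il2ra, the high-affinity chain of the IL-2 receptor, read 1.33 and 1.94 in NEMO knockout arrays, against -0.81, -1.17 and -1.28 in IKK2 knockout arrays, a difference of 2.72 (SE 0.29). Csf2, the cytokine GM-CSF, read -1.38 and -1.23 in NEMO knockout arrays, against -3.82, -4.12 and -4.31 in IKK2 knockout arrays, a difference of 2.78 (SE 0.36). For both genes NEMO knockout arrays lay above IKK2 knockout arrays, and the Cre controls differed between the 2 genes: they read 0.21, 0.67 and 1.01 for Il2ra, between the knockouts, and -3.99, -4.83 and -3.94 for Csf2, within or below the IKK2 knockout range. The chemokine genes Ccl3 (3.48), Ccl4 (3.15) and Ccl5 (3.09), the cytokine Tnf (1.40), the survival genes Bcl2a1d (1.83) and Bcl2l1 (0.79), Gadd45b (1.58), the adhesion molecule Icam1 (1.37) and the transcription factor Irf4 (0.97) were higher too. Only Myc, the growth regulator, was lower, at 0.85 and 0.51 in NEMO knockout arrays, against 2.06, 1.78 and 2.45 in IKK2 knockout arrays. Several of these targets, among them the chemokines, are made by effector T cells, macrophages and NK cells as well, and the summed levels of macrophage and of CD8 and NK cell markers were higher in NEMO knockout arrays. Ccl3 (3.11) did not pass without NEMO knockout replicate 1, and neither Ccl3 nor Ccl4 passed when the 5 arrays were fitted alone. With normexp Ccl3 stood at 1.88 and Csf2 at 1.11.

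Promoters are shown for 3 of the higher NF-kB targets, Il2 as the largest rise, Il2ra as its receptor and Nfkb2 as the gene of the noncanonical pathway, each from RefSeq for build GRCm38.p6 and covering 250 bases before to 50 bases after the annotated start, 5′ to 3′ on the strand of the gene, with matches to GGG, any 5 bases and CC, on either strand, in capitals (overlapping matches run together).
Il2 (chr3:37125905-37126204, minus strand): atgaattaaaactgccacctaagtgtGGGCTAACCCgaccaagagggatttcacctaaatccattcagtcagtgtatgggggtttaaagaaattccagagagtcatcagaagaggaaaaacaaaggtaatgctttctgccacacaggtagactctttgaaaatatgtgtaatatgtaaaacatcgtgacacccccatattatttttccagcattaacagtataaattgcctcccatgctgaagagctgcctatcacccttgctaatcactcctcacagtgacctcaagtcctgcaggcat
Il2ra (chr2:11642542-11642841, plus strand): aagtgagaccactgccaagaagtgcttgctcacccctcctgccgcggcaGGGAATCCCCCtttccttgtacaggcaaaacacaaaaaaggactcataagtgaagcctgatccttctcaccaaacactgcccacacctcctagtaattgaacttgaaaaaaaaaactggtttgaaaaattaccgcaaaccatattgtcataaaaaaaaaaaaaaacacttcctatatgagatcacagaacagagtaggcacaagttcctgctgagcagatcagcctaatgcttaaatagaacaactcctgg
Nfkb2, first annotated start (chr19:46304487-46304786, plus strand): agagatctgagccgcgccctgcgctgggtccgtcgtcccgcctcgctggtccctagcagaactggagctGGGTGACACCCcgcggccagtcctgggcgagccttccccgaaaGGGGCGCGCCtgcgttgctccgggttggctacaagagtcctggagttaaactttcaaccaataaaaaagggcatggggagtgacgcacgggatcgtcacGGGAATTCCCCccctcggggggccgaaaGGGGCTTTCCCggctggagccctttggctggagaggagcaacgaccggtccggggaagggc
The Il2 window held 1 match, the Il2ra window 2 overlapping matches and the Nfkb2 window 7. These letters spell a loose form of the NF-kB binding site, and 50.8% of 32851 promoters of the same length held a match. Among tested genes with a promoter, 71.3% of the higher, 68.2% of the lower and 66.8% of the genes that did not pass held it, and so did 19 of 23 NF-kB targets with a promoter and 11 of the 15 higher ones. The motif was thus about as common in higher and lower genes as elsewhere, and a match describes letters, not binding.

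Of 16 genes of IL-2 signalling 5 were higher and 5 lower, with a median of 0.011, beside 19.0% higher and 27.1% lower among all genes. The higher ones were Il2 and Il2ra, the receptor chain Il2rb (2.54 (SE 0.31)), and the induced feedback genes Socs2 (3.17 (SE 0.36)) and Cish (0.99 (SE 0.24)). The lower ones included the signal carrier Stat5b (-0.45), the kinase Pim2 (-0.62) and the feedback inhibitors Socs1 (-0.81 (SE 0.23)) and Socs3 (-1.5 (SE 0.12)). Socs3 read 4.54 and 4.50 in NEMO knockout arrays, against 5.90, 6.02 and 6.14 in IKK2 knockout arrays, so the NEMO knockout arrays were the lower ones here. The shared receptor chain Il2rg (0.16) and the kinase Jak3 (0.19) did not pass. The lower members numbered 3 without either NEMO knockout replicate, as Socs1 (-0.75) did not pass without replicate 1 nor Pim2 (-0.50) without replicate 2, where Cish (0.88) did not pass either.

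Genes of naive and central T cells were lower and genes of antigen-experienced T cells higher in the NEMO knockout. Of 20 naive and central genes 15 were lower, 1 was higher and 4 did not pass, with a median of -1.76, beside 27.1% lower among all genes. Ccr7, which guides T cells to the T zones of lymphoid organs, read 4.79 and 4.60 in NEMO knockout arrays, against 7.88, 8.10 and 8.16 in IKK2 knockout arrays, and Bach2, a repressor of effector differentiation, read 0.41 and 0.15 in NEMO knockout arrays, against 3.0, 3.08 and 3.13 in IKK2 knockout arrays. The NEMO knockout arrays lay far below the IKK2 knockout arrays for both genes, and the IKK2 knockout arrays overlapped the nephritic Cre controls, with falls of 3.35 (SE 0.15) and 2.79 (SE 0.12). The transcription factors Lef1 (2.29), Satb1 (1.77), Foxp1 (1.68), Foxo1 (1.06) and Tcf7 (0.77) fell by the values given, as did the egress receptor S1pr1 (1.14) and the IL-6 receptor chains Il6ra (2.19) and Il6st (1.79). A second Foxp1 probe gave -3.61. The gut homing receptor Ccr9 was the 1 higher member (1.30 (SE 0.48)). Its call was lost without either NEMO knockout array (1.40 and 1.2) and without IKK2 knockout replicate 1 (1.25) or 3 (1.06).

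Of 27 antigen-experienced genes 25 were higher, 1 was lower and 1 did not pass, with a median of 2.54. These counts stand beside 19.0% higher and 27.1% lower among all genes. Cd44, the classical memory marker, read 4.09 and 4.18 in NEMO knockout arrays, against 2.28, 1.67 and 1.78 in IKK2 knockout arrays, a difference of 2.22 (SE 0.21), and its 3 other probes gave 1.16 to 2.52. Lgals3, a galectin of activated T cells, read 5.83 and 5.78 in NEMO knockout arrays, against 2.22, 1.92 and 2.23 in IKK2 knockout arrays, a difference of 3.68 (SE 0.29). S100a4 (2.97), S100a6 (2.88), Anxa1 (3.23), Anxa2 (2.44) and Ahnak (3.49), which code for calcium-binding and membrane scaffold proteins of motile cells, rose by these values, and so did the effector regulators Prdm1 (1.48), Id2 (2.65), Zeb2 (2.08), Runx3 (1.38), Maf (3.35) and Bhlhe40 (3.07), with a second Runx3 probe at -0.036 and a second Ahnak probe at 1.96. The 1 member that did not pass was Cxcr6, a tissue-residency chemokine receptor, at 6.72 and 6.76 in NEMO knockout arrays, against 4.24, 2.67 and 3.24 in IKK2 knockout arrays. Its SE was 2.24, and a second probe gave 3.48 (SE 0.57). Both NEMO knockout arrays lay above the IKK2 knockout arrays. The lower member was Cd69, an early activation marker, at 1.96 and 2.23 in NEMO knockout arrays, against 3.76, 3.77 and 3.87 in IKK2 knockout arrays and 2.68, 2.79 and 2.63 in Cre controls, so the IKK2 knockout arrays stood above both other groups. Zeb2 (1.97) did not pass without NEMO knockout replicate 2.

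**Figure D4:**
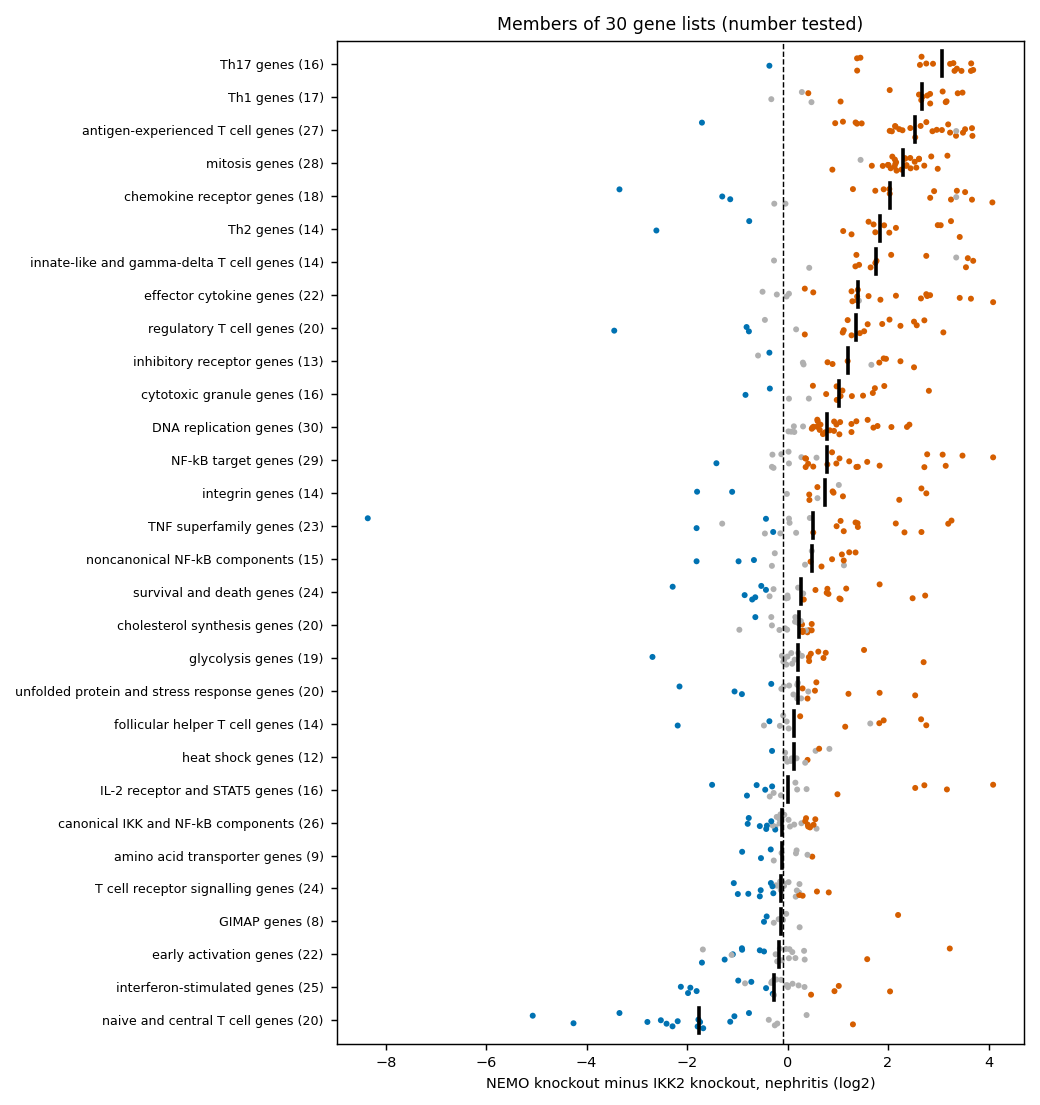
Difference between NEMO knockout and IKK2 knockout arrays with nephritis (log2, horizontal axis) for the tested members of 30 gene lists, 1 point per gene, orange where higher and blue where lower past an adjusted p of 0.05 and grey otherwise, with a black bar at the list median and a dashed line at the median of all genes, -0.10. Th17, Th1, antigen-experienced and mitosis genes lie to the right, naive and central genes to the left, and T cell receptor signalling and canonical NF-kB genes around the dashed line.

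T helper genes of several kinds were higher in the NEMO knockout. Of 16 Th17 genes 15 were higher and 1 was lower, with a median of 3.06, beside 19.0% higher and 27.1% lower among all genes. Ccr6, the receptor that draws Th17 cells to mucosa and inflamed kidney, read 5.25 and 5.70 in NEMO knockout arrays, against 2.95, 1.16 and 2.21 in IKK2 knockout arrays, a difference of 3.37 (SE 0.54). Il1r1, the IL-1 receptor, read 2.06 and 2.33 in NEMO knockout arrays, against -0.34, -2.46 and -1.58 in IKK2 knockout arrays, a difference of 3.65 (SE 0.65), and Il23r was higher by 3.69 (SE 0.89). For Il1r1 both knockouts lay above the nephritic Cre controls, at -4.63, -5.38 and -3.82, with the NEMO knockout above the IKK2 knockout. Il17a was not well above background in any IKK2 knockout array and was at least 4.66-fold higher in the NEMO knockout, while Il22 rose by 1.38 (SE 0.32). Rora (3.32), Ahr (2.63) and the IL-17 receptor chains Il17re (3.30) and Il17rc (3.23) rose as well, and Stat3, which carries the IL-6 and IL-23 signals, fell by 0.36 (SE 0.10). The fall of Stat3 (-0.33) did not pass without NEMO knockout replicate 1. With normexp Il23r stood at 2.16, Il22 at 0.55 and Il17a, below its bound, at 0.77. A second Ahr probe gave 1.65.

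Of 17 Th1 genes 14 were higher, none was lower and 3 did not pass, with a median of 2.69. The shares over all genes were 19.0% higher and 27.1% lower. Tbx21, whose product T-bet directs Th1 cells, read 4.33 and 4.58 in NEMO knockout arrays, against 1.81, 0.88 and 0.51 in IKK2 knockout arrays, a difference of 3.39 (SE 0.49). Ifng, the Th1 cytokine, read 4.08 and 3.98 in NEMO knockout arrays, against 1.72, 0.54 and 1.30 in IKK2 knockout arrays, a difference of 2.84 (SE 0.53) with adjusted p = 0.00108. Both genes were lower in every IKK2 knockout array, and the Cre controls read -0.50, 0.10 and 0.55 for Ifng. The receptor genes Cxcr3 (2.84), Il18r1 (2.69), Il18rap (3.17) and Il12rb1 (2.78) rose too, whereas Il12rb2 (0.28) and Hlx (0.48) were among those that did not pass. Th1 genes such as Ifng, Tbx21 and Nkg7 (2.66) are also active in NK cells. Markers of CD8 and NK cells together summed to 64.1 to 67.9 in NEMO knockout and 22.5 to 43.4 in IKK2 knockout arrays. Of these 11 markers 6 were higher and 2, Cd8b1 and Prf1, lower, and the part of NK cells was not tested.

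Of 14 Th2 genes 12 were higher and 2 lower, with a median of 1.83, beside 19.0% higher and 27.1% lower among all genes. Gata3, the Th2 master factor, read 4.61 and 4.79 in NEMO knockout arrays, against 3.63, 3.55 and 3.60 in IKK2 knockout arrays, a difference of 1.11 (SE 0.091). Il1rl1, the IL-33 receptor, read 1.94 and 2.33 in NEMO knockout arrays, against -0.44, -1.06 and -1.06 in IKK2 knockout arrays, a difference of 2.99 (SE 0.23), and the Cre controls lay between, at 1.39, 1.11 and 1.29. Il4 read 0.76 and 0.15 in NEMO knockout arrays, against -1.22, -2.69 and -1.2 in IKK2 knockout arrays, with the NEMO knockout arrays above the IKK2 knockout arrays and a difference of 2.16 (SE 0.38). Of genes at background on every IKK2 knockout array, Il13 was at least 2.77-fold higher and Ptgdr2, a prostaglandin receptor of Th2 cells, at least 4.23-fold. Il4ra, the IL-4 receptor, fell, at 0.089 and 0.0064 in NEMO knockout arrays, against 2.94, 2.47 and 2.57 in IKK2 knockout arrays, and a second probe gave a smaller difference of -0.62 (SE 0.19). The lower Th2 genes numbered 1 without NEMO knockout replicate 2. With normexp background correction 8 Th2 genes were higher and the list median was 0.66, in the authors' deposited matrix the median was 1.23, and of the 9 members well above background on all 5 arrays 7 were higher. Il13 (0.41) did not pass with normexp, where Ptgdr2 stood at 0.65, and both values were below the bounds given.

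Of 20 regulatory T cell genes 15 were higher, 3 lower and 2 did not pass, with a median of 1.35. Among all genes 19.0% were higher and 27.1% lower. Foxp3, the lineage factor, read 0.11 and 1.05 in NEMO knockout arrays, against -0.92, -0.95 and -0.96 in IKK2 knockout arrays, a difference of 1.52 (SE 0.35). The NEMO knockout arrays lay above the IKK2 knockout arrays, and the Cre controls, at -0.43, 0.50 and 0.88, lay above the IKK2 knockout arrays and overlapped the NEMO knockout arrays. Ikzf2 (2.57), Nrp1 (3.1), Ctla4 (1.2) and Lrrc32 (1.59), the surface anchor of latent TGF-beta, rose by these values. Gpr83 was not well above background on either NEMO knockout array and was at least 6.49-fold lower, and lower levels were also found for the folate receptor gene Izumo1r (-0.82) and Ikzf4 (-0.77). Of 14 follicular helper genes 6 were higher and 2 lower (median 0.14): Il21 (2.76), Ascl2 (2.66), Cxcr5 (1.91), Pdcd1 (1.83) and Icos (1.15) were among the higher, while the lineage repressor gene Bcl6 read 3.05 and 2.86 in NEMO knockout arrays, against 3.0, 2.96 and 2.96 in IKK2 knockout arrays and overlapped. With NEMO knockout replicate 2 left out, Foxp3 (1.05), Ctla4 (0.91) and Lrrc32 (1.04) did not pass, nor did Il21 (2.53) with replicate 1 left out, where Ikzf4 stood at -0.50. The lower follicular helper genes numbered 1 without replicate 2. With normexp Nrp1 stood at 1.45, Lrrc32 at 0.93 and Ctla4 at 0.75, and Gpr83 at -0.996, a smaller fall than its bound.

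Effector molecules followed. Of 16 cytotoxic granule genes 12 were higher and 2 lower, with a median of 1.02, beside 19.0% higher and 27.1% lower among all genes. Gzmb, the protease granzyme B, read 2.72 and 3.1 in NEMO knockout arrays, against 0.45, 0.17 and -0.33 in IKK2 knockout arrays, a difference of 2.81 (SE 0.30). Gzmk (1.28) and Ctsw (1.93) rose as well. Prf1, the pore-forming perforin, read 1.14 and 0.88 in NEMO knockout arrays, against 1.56, 1.96 and 2.03 in IKK2 knockout arrays and fell by 0.84 (SE 0.18), so the NEMO knockout arrays were the lower ones. Of 14 innate-like and gamma-delta T cell genes 11 were higher and none lower (median 1.76), among them Cd163l1 (3.59), Klrk1 (3.55), Klrb1f (2.76) and Kit (1.42). Zbtb16, which encodes the innate-like T cell factor PLZF, read -1.97 and -1.82 in NEMO knockout arrays, against -3.59, -3.76 and -3.64 in IKK2 knockout arrays, below the Cre controls (-1.31, -0.15 and -0.20) in both knockouts and lowest in the IKK2 knockout. Killer receptor genes such as Klrd1 (1.35) and Klrb1c (1.75) are also NK cell markers, and they were counted in the list of CD8 and NK cell markers too. Of 13 inhibitory receptor genes 8 were higher and 1 was lower (median 1.2), with Tigit (2.52) and Cd160 (1.91) among the higher and Btla (-0.36) the lower one. NEMO knockout replicate 2 decided the calls of Kit (1.13 without it), Klrb1c (1.52) and Btla (-0.28), and without it 5 inhibitory receptor genes were higher and 1 cytotoxic granule gene was lower. With normexp Klrk1 stood at 1.41, Cd160 at 1.2 and Zbtb16 at 0.66, Btla (-0.17) did not pass, and the median of the inhibitory receptor genes was 0.75.

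Cytokine genes rose or did not pass: of 22 effector cytokine genes 17 were higher and none lower, with a median of 1.41. Besides those named above, Csf1 (2.65), the macrophage growth factor, and Tgfb3 (1.85) were higher, and Ltb (0.027), Il16 (-0.21) and Il3 (-0.50) did not pass. Of 23 TNF superfamily genes 12 were higher and 4 lower (median 0.51), beside 19.0% higher and 27.1% lower among all genes. Tnfsf14, the ligand LIGHT, read 3.83 and 3.93 in NEMO knockout arrays, against 1.5, 0.31 and 0.25 in IKK2 knockout arrays, a difference of 3.20 (SE 0.48). Tnfsf11, the ligand RANKL, was higher by 2.33 (SE 0.25), Tnfsf9, the 4-1BB ligand, by 2.67 (SE 0.25) and Tnfrsf25, the receptor DR3, by 1.39 (SE 0.19). Cd70, the ligand of CD27, was not well above background in any IKK2 knockout array and was at least 4.21-fold higher. The ligand thus rose and its receptor Cd27 fell, and Cd40lg (-0.14) did not pass. Without IKK2 knockout replicate 1 or NEMO knockout replicate 2 the lower TNF superfamily genes numbered 2. With normexp the median of the effector cytokine genes was 0.45, Csf1 stood at 1.73 and Cd70, below its bound, at 0.49. In the authors' deposited matrix the median of the effector cytokine genes was 0.89.

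Genes of migration differed as well. Of 18 chemokine and related guidance receptors 12 were higher and 3 lower, with a median of 2.03, beside 19.0% higher and 27.1% lower among all genes. Ccr2, which draws cells to inflamed tissue, read 4.20 and 4.06 in NEMO knockout arrays, against 1.2, 0.46 and 0.12 in IKK2 knockout arrays, a difference of 3.53 (SE 0.39). Cx3cr1, the fractalkine receptor of cytotoxic effector cells, was higher by 3.67 (SE 0.63), Ccr4 by 3.25 (SE 0.35) and S1pr5 by 2.92 (SE 0.67). The 3 lower members were the lymphoid homing receptor Ccr7, the egress receptor S1pr1 and Cxcr4, at 0.68 and 0.68 in NEMO knockout arrays, against 2.10, 1.99 and 1.87 in IKK2 knockout arrays and thus lower in both NEMO knockout arrays. Of 14 integrin genes 9 were higher and 2 lower (median 0.75), with Itgb1 (2.76), Itga1 (2.66), Itga2 (2.22) and Itga4 (1.10) among the higher and Itga6 (-1.80) and Itga5 (-1.10) the lower ones. With normexp Itga2 stood at 0.91 and Itga5 at -0.60.

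Survival and death genes moved both ways. Of 24 tested 11 were higher and 6 lower, with a median of 0.26, beside 19.0% higher and 27.1% lower among all genes. Bcl2, which protects resting T cells, read 2.96 and 2.86 in NEMO knockout arrays, against 5.30, 5.08 and 5.20 in IKK2 knockout arrays and fell by 2.29 (SE 0.13). The IKK2 knockout arrays lay above the Cre controls (4.13, 4.47 and 4.25) and the NEMO knockout arrays below them. Bik, a death-promoting relative, read 0.78 and 0.82 in NEMO knockout arrays, against -1.44, -2.38 and -2.0 in IKK2 knockout arrays, a difference of 2.74 (SE 0.35), and Pmaip1, which encodes NOXA, read 2.94 and 2.93 in NEMO knockout arrays, against 0.89, 0.51 and -0.051 in IKK2 knockout arrays, a difference of 2.49 (SE 0.40). The NEMO knockout arrays were the higher ones for both. Other death genes fell, among them Bbc3, which encodes PUMA (0.86), Bcl2l11, which encodes BIM (0.70) and Casp8 (0.64), as did the survival gene Mcl1 (0.52). The survival genes Bcl2a1d and Bcl2l1 were among the higher NF-kB targets above. Bbc3 (-0.69) did not pass without NEMO knockout replicate 2, nor Bcl2l11 (-0.57) without replicate 1. With normexp Mcl1 (-0.44) did not pass, and its second probe gave -0.28.

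Proliferation genes were almost uniformly higher. Of 28 mitosis genes 27 were higher and none lower, with a median of 2.30. Of 30 DNA replication genes 25 were higher and none lower, with a median of 0.79. Both counts stand beside 19.0% higher and 27.1% lower among all genes. Mki67, the proliferation antigen, read 5.38 and 5.20 in NEMO knockout arrays, against 3.17, 2.40 and 2.46 in IKK2 knockout arrays, a difference of 2.62 (SE 0.35). Cdk1, the kinase that starts mitosis, read 1.67 and 1.12 in NEMO knockout arrays, against -1.34, -2.15 and -1.87 in IKK2 knockout arrays, a difference of 3.18 (SE 0.29), and Bub1, a spindle checkpoint kinase, read 0.25 and 0.033 in NEMO knockout arrays, against -1.90, -2.47 and -2.54 in IKK2 knockout arrays. Of 2 other Cdk1 probes 1 gave 2.84 and 1 gave -0.23. In each case the lower NEMO knockout array lay above the highest IKK2 knockout array. Of replication genes, Rrm2 (2.38) and Tk1 (2.42), which supply nucleotides, and the loading factor Cdc6 (1.79) showed the larger differences, while Mcm2 (0.13), Mcm4 (0.071) and Mcm7 (0.12) did not pass. The 1 mitosis gene that did not pass was Cenpf, which was not well above background in any IKK2 knockout array. With normexp Cdc6 stood at 1.1.

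Of 25 interferon-stimulated genes 4 were higher, 8 lower and 13 did not pass, with a median of -0.27. These shares lay near the 19.0% higher and 27.1% lower among all genes. Oas2, an antiviral sensor, read 2.34 and 3.02 in NEMO knockout arrays, against 4.51, 4.45 and 5.46 in IKK2 knockout arrays and fell by 2.12 (SE 0.29). Ifit3 (1.94), Ifit2 (1.81) and Oasl1 (1.98) fell by similar amounts, and Cxcl10, a chemokine that interferons also induce, was higher by 2.04 (SE 0.61). IKK2 knockout replicate 3 was the highest array for Oas2, and the mean level of the list ran from 2.41 to 2.87 in NEMO knockout arrays, against 2.54 to 3.45 in IKK2 knockout and 3.17 to 3.33 in Cre control arrays, so the knockouts overlapped. Single arrays changed these counts: without NEMO knockout replicate 2 no gene of the list was higher and Ifit3 (-1.63) and Cxcl10 (1.56) did not pass, and without replicate 1 only 4 were lower. Cxcl10 (1.57) did not pass without IKK2 knockout replicate 2 either, and the higher genes then numbered 2. The list median was 0.10 without NEMO knockout replicate 1 and 0.11 without IKK2 knockout replicate 3.

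Early activation genes included 2 higher and 7 lower members of 22, with a median of -0.18, beside 19.0% higher and 27.1% lower among all genes. Nr4a1, which is induced by the T cell receptor, read 3.75 and 3.56 in NEMO knockout arrays, against 4.86, 5.00 and 4.87 in IKK2 knockout arrays and fell by 1.25 (SE 0.12). Fos (1.09), Egr1 (0.91) and Dusp1 (0.91) fell too, and Ier3, which NF-kB also induces, was higher by 3.23 (SE 0.54). Of 24 T cell receptor signalling genes 4 were higher and 8 lower (median -0.13), shares near the 19.0% and 27.1% of all genes. Single members were lower or higher, with falls of the zeta chain gene Cd247 (1.07 (SE 0.13)) and of Prkcq (0.78 (SE 0.11)), the kinase that leads to NF-kB, and a rise of Nfatc2 (0.82 (SE 0.14)). Of 8 GIMAP genes, lymphocyte GTPases, Gimap7 was higher by 2.20 (SE 0.32), Gimap3 and Gimap6 were lower and 5 did not pass. Of 12 heat shock genes 2 were higher, 1 was lower and 9 did not pass. Without NEMO knockout replicate 2 the lower early activation genes numbered 3, as Fos (-0.49) and Dusp1 (-0.75) did not pass, and T cell receptor signalling genes held 2 higher and 5 lower members. Fos (-0.98) did not pass without IKK2 knockout replicate 2 either and stood at -1.69 without NEMO knockout replicate 1. Gimap6 did not pass without either NEMO knockout array (-0.51 and -0.43) or without IKK2 knockout replicate 1 (-0.43), nor Gimap3 (-0.38) without NEMO knockout replicate 1. Leaving out any 1 of the 5 arrays lowered a heat shock count. With normexp Ier3 stood at 1.72 and Gimap6 (-0.42) did not pass, and 5 T cell receptor signalling genes were lower. Gimap3 did not pass with quantile normalization (-0.12) or in the authors' deposited matrix (-0.29).

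Lists of metabolism and stress held called genes in both directions, beside 46.1% called among all genes. Of 19 glycolysis genes 8 were higher and 1 was lower, with a median of 0.21. Hk2, the inducible hexokinase, read -0.63 and -0.61 in NEMO knockout arrays, against -2.94, -3.90 and -3.15 in IKK2 knockout arrays, a difference of 2.71 (SE 0.32). Pdk1, a kinase that inhibits pyruvate dehydrogenase, read 1.38 and 0.96 in NEMO knockout arrays, against 3.76, 3.87 and 3.96 in IKK2 knockout arrays and fell by 2.69 (SE 0.15). The Cre controls, at -2.96, -3.12 and -3.16 for Hk2 and 3.81, 3.68 and 3.54 for Pdk1, overlapped the IKK2 knockout arrays for both. Ldha (-0.024) and Aldoa (-0.11) did not pass. Of 20 cholesterol synthesis genes 7 were higher, all by less than 2-fold, and the regulator Srebf2 fell by 0.64 (SE 0.13), although a second probe gave -0.063 (SE 0.16). Of 20 unfolded protein and stress response genes 7 were higher and 4 lower, with the asparagine synthetase gene Asns (2.54 (SE 0.56)) and the sensor Atf6 (1.83 (SE 0.20)) the largest rises and Trib3 (-2.15 (SE 0.23)) and Ppp1r15a (-1.06 (SE 0.28)) the largest falls. Xbp1 of this list (0.54 (SE 0.13)) is also a plasma cell marker. Of 9 amino acid transporter genes 1 was higher and 3 were lower, among them Slc7a5 (-0.91 (SE 0.21)), the leucine transporter. Without NEMO knockout replicate 2 Ppp1r15a (-0.92) and Slc7a5 (-0.76) did not pass, and higher cholesterol genes numbered 3, lower stress response genes 2 and lower amino acid transporter genes 1. Without any 1 IKK2 knockout array the higher cholesterol genes numbered 4. With normexp Hk2 stood at 1.44.

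Most of these differences were also present without nephritis, in 5 arrays that share none with the comparison above. Both comparisons came from the same fit with 1 variance per gene, so their calls share that error estimate and are not independent. There, 5173 genes (35.3%) passed between untreated NEMO and IKK2 knockout arrays, 2260 higher (15.4%) and 2913 lower (19.9%). Of the 2783 genes higher with nephritis 1925 (69.2%) were higher without it, which is 85.2% of the untreated list, and 7 were lower. Of the 3984 lower genes 2319 (58.2%) were lower without it, which is 79.6% of the untreated list, and 14 were higher. Slide separates the genotypes here as well, with both NEMO knockout arrays on slide 3 and the IKK2 knockout arrays on slides 1 and 2. The naive and central list had a median of -1.18 untreated, the Th17 list 2.96, the Th1 list 2.19, the antigen-experienced list 2.02 and the mitosis list 1.95. NF-kB targets stood at 0.66 with 15 higher and 1 lower, and the macrophage and monocyte markers at 0.42 with none called. Other lists differed in sign: heat shock genes had a median of 0.13 with nephritis (2 higher, 1 lower) and -0.39 untreated (1 higher, 6 lower), cholesterol synthesis genes 0.22 (7 higher, 1 lower) and -0.15 (3 higher, 5 lower), and CD8 and NK cell markers 1.13 (6 higher, 2 lower) and -0.12 (2 higher, 2 lower). The untreated count was 3177 genes without untreated NEMO knockout replicate 1 and 3494 without replicate 2, and 3007 when the 5 untreated arrays were fitted alone. That separate fit kept 54.3% of the 5173 untreated calls.

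A contrast of its own asked which genotype differences themselves differed between nephritis and none. It passed for 37 genes (0.252%), 3 of them (0.0204%) with a positive and 34 (0.232%) with a negative contrast. A negative contrast can stand for a larger fall in the NEMO knockout under nephritis. The count of 37 rested on single arrays and settings: it ran from 13 without nephritic IKK2 knockout replicate 2 to 87 without untreated IKK2 knockout replicate 1 and was 0 with normexp background correction. Slide as a block gave 15, the same as leaving out untreated IKK2 knockout replicate 3. That block cannot adjust the genotype difference for slide. Of the list members Bach2 alone passed: its difference was -2.79 with nephritis and -1.77 without, a contrast of -1.02 (SE 0.17, adjusted p = 0.0425). Plin2, a coat protein of lipid droplets, had a difference of 0.56 with nephritis and -0.62 without, both past the threshold, a contrast of 1.18 (SE 0.16, adjusted p = 0.0144). Stip1, a co-chaperone, and Aacs, an enzyme of ketone body use, were lower in the untreated NEMO knockout (-0.72 and -0.52) and did not pass with nephritis (0.10 and 0.23). For all other list members this contrast did not pass at the precision of these arrays.

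**Figure D5:**
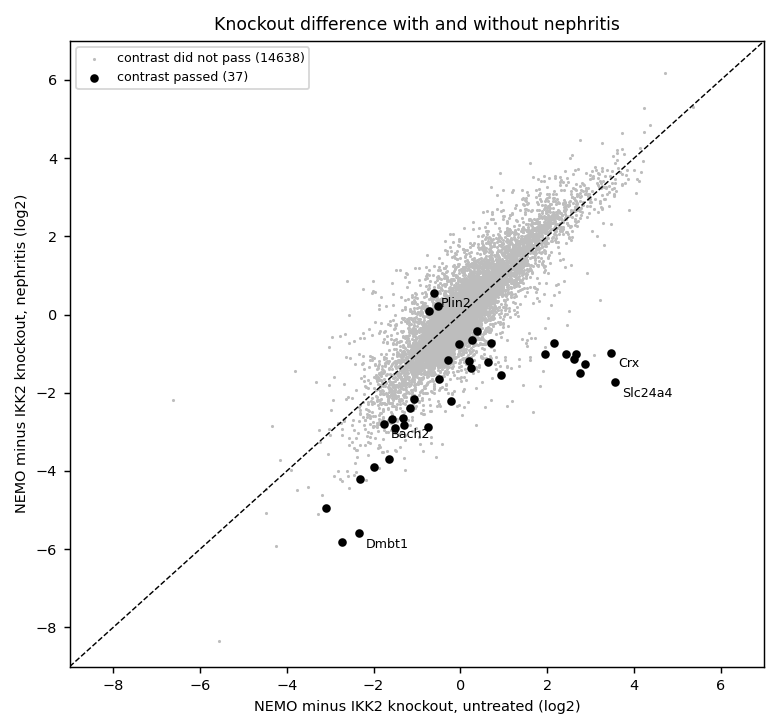
Difference between NEMO knockout and IKK2 knockout arrays (log2) with nephritis (vertical axis) against the same difference without nephritis (horizontal axis), 1 point per gene for 14675 genes, from groups that share no array. Grey points lie along the dashed line of equal differences, and black points mark the 37 genes whose differences differed between the conditions, 34 of them below the line.

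The nephritic Cre controls give a further point for each gene, although they share slide 1 with the IKK2 knockout arrays. Their mean was nearer to the IKK2 knockout mean for 85.1% of the higher and 93% of the lower genes, and slide and genotype cannot be told apart in these shares. Genes such as Nfkb2, Relb, Il1rl1 and Il2ra had Cre control means between the knockouts, whereas Lrrc32 read -0.63, 0.28 and 0.85 in Cre controls, within or above the NEMO knockout arrays (-1.13 and -0.013) and above the IKK2 knockout arrays (-2.08, -1.97 and -2.44).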

How the data were processed

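Total RNA of CD4+ T cells from spleen was hybridised with Cy3 to 1-colour whole-genome mouse arrays. The deposited scanner files hold background-subtracted intensity values per spot, made with Agilent Feature Extraction 10.7.3.1 per the file headers (10.5 per the submitters' processing notes). A second table holds log2 values that the authors deposited for each array, with a normalization not given in the sources used here. Column medians were 5.65 to 5.68, and the table correlated at 0.994 or more with the log2 median spot signal of each array and was used as an alternative.

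From the scanner files, log2 processed intensity minus each array's 75th percentile was taken, without control and outlier spots. Probes well above background on at least 2 of the 16 arrays were kept (34938), named from RefSeq GRCm38.p6 through their accessions (27235 of 55681 probes had 1 gene, 28446 none), and each gene was represented by its brightest probe. The headers name an older genome build, so no probe coordinates are given. limma 3.58.1 in R 4.3.3 was fitted to all 16 arrays in 6 groups without covariates, with Benjamini-Hochberg adjustment over 14675 genes at 0.05, and each comparison is a contrast of that fit. The fit was tested on simulated data.

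Bounds ("at least N-fold") compare the mean of the group above background with the mean, in the other, of each array's lowest signal among probes well above background or the probe's own signal if higher. They hold for the processed signal only, and other background correction gave smaller differences. The genes named are Ikbkb and Ikbkg, the 12 largest differences in each direction among genes whose arrays do not overlap and that are above background in both groups, the 6 largest bounds in each direction, the 6 largest contrasts between conditions in each direction (3 existed upward), and members of 38 gene lists. Members and lists were chosen with earlier results of these data known. A few list members count in the lists but are not reported here by name. Alternatives were normexp (with an offset of 50, on median spot and background signals, as the scanner columns used here hold no mean signal), quantile normalization, the probes behind the percentile, the filter, the mean over probes, the authors' matrix, the arrays fitted, a slide block, a replicate block and each array left out. Cre control replicate 2 with nephritis stood apart from the other arrays and was left out in an alternative added later, as was a test of only the 12328 genes well above background on all 5 arrays. Figures were drawn with matplotlib 3.10.9.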

Additional observations from a re-analysis of the deposited data

Results flagged for a closer look

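The difference between NEMO and IKK2 knockout arrays itself differed between nephritis and no nephritis for 37 genes, by the contrast of both differences in limma's model over all 16 arrays. Of these, 23 were well above background on all 10 arrays involved. Values below give the difference with nephritis minus the difference without it, on the log2 scale.

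Plin2 had a contrast of 1.18, Stip1 of 0.82 and Aacs of 0.74, the 3 genes with a positive contrast. Without regard to sign, all 3 differences were smaller with nephritis than without. Plin2 read 0.59 and 0.76 in nephritic NEMO knockout arrays, against 0.28, 0.029 and 0.038 in nephritic IKK2 knockout arrays, and 0.42 and 0.37 in untreated NEMO knockout arrays, against 0.92, 0.94 and 1.18 in untreated IKK2 knockout arrays. For this gene the order of the knockouts was opposite in both conditions, and the untreated IKK2 knockout arrays were the highest.

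Bach2, the repressor of effector differentiation, had a contrast of -1.02. It read 0.41 and 0.15 in nephritic NEMO knockout arrays, against 3.0, 3.08 and 3.13 in nephritic IKK2 knockout arrays, and 1.12 and 1.25 in untreated NEMO knockout arrays, against 2.81, 2.96 and 3.08 in untreated IKK2 knockout arrays. The IKK2 knockout arrays of both conditions overlapped and the nephritic NEMO knockout arrays were the lowest. The enzyme gene Aldh1l1 (-1.89) and the chemokine receptor gene Cxcr1 (-1.87) were likewise lower in the NEMO knockout in both conditions, with the larger difference under nephritis. Abcb11 (-3.1) and Dmbt1 (-3.25) were at background on both nephritic NEMO knockout arrays and well above it on both untreated ones, so their contrasts depend on the level of the background.

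The largest contrasts belonged to Slc24a4 (-5.29), Crx (-4.45), Vmn2r16 (-4.26), Rbfox3 (-4.13), Adgrl2 (-3.74) and Slc17a2 (-3.67). These 6 genes are among 10 of the 37 whose probes used here were well above background on both untreated NEMO knockout arrays and on no nephritic array of either knockout and no untreated IKK2 knockout array. Their levels were dim even there: Slc24a4, a sodium, calcium and potassium exchanger, read -2.64 and -2.86 in untreated NEMO knockout arrays, and Rbfox3, a neuronal splicing factor, -2.61 and -4.62. The nephritic differences of these genes, from -1.73 to -0.98, are between values at background and are not read as levels of the genes. Slc24a4, Crx, Vmn2r16, Adgrl2 and Slc17a2 were still called lower with nephritis. They are among 23 called genes whose probes used here were at background on every nephritic array of both knockouts.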

How the results depend on the processing

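Of 213 called genes named in the text, 172 kept their direction and their call under every alternative run and 41 lost the call under at least 1, none with a turned sign. The genes called with all settings as reported were called with the same sign in 67.1% to 97.9% of cases, lowest without NEMO knockout replicate 2 and highest with the percentile taken over probes detected on all arrays. With the mean of a gene's probes 5 of them were called with the opposite sign. Ldha, which did not pass, was called higher with quantile normalization (0.42) and with the authors' deposited matrix (0.40). For the nephritis comparison the counts under 10 settings other than leaving out an array lay within 1.5 times of those reported, except 6992 lower genes when all 20660 genes were tested without a filter on dim probes. Of the calls 28% were higher without that filter and 41.1% with it. Leaving out single arrays gave 4595 to 6127 called genes, 2020 to 2575 higher and 2571 to 3552 lower, and leaving out Cre control replicate 2 with nephritis, a setting chosen after seeing the data, gave 2798 higher and 3920 lower.

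Without nephritis, single arrays left out gave 3177 to 5540 called genes (1489 to 2218 higher, 1688 to 3322 lower), and a fit of these 5 arrays alone 3007 (1452 lower), and leaving out that Cre control array 5086 (2256 higher, 2830 lower). The contrast between conditions was the least stable result. Its 37 genes became 0 (0 higher, 0 lower) with normexp, where 1104 passed an unadjusted p of 0.05, 72 (12 and 60) with quantile normalization, 92 (9 and 83) with the percentile over probes detected on all arrays, 18 (1 and 17) with no filter, 59 (7 and 52) with a stricter filter, 43 (5 and 38) with the mean of a gene's probes, 2 (0 and 2) in the authors' deposited matrix, 1 (0 and 1) in a fit of the 10 arrays alone, 15 (1 and 14) with slide as a block and 15 (1 and 14) without that Cre control array. Single arrays left out gave 13 to 87 (1 to 7 higher, 11 to 80 lower). The slide block gave the counts found without untreated IKK2 knockout replicate 3 and did not adjust the genotype difference for slide. The causes were not tested.

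Deviations of same-numbered arrays from their group means correlated at -0.12 and -0.079. The deviations of the 2 NEMO knockout arrays mirror each other, so these values cannot decide whether replicate numbers pair samples. With the replicate block the nephritis comparison called 6684 genes (2672 higher, 4012 lower) and the comparison without nephritis 5160, and the contrast called 9 (0 higher, 9 lower), 8 of them among the 37. Ikbkb ranged from -0.18 to -0.099 and Ikbkg from -0.31 to -0.18 when single arrays were left out, and the other Ikbkg probe gave 0.24. Of 1216 list counts under the alternatives 1101 lay within 1.5 times of those reported. List medians turned sign under some setting for 7 of 38 lists, among them T cell receptor signalling genes (0.06 with quantile normalization) and the B cell, neutrophil, erythroid and platelet markers. Slide, which cannot be told apart from genotype here, and 2 NEMO knockout arrays per condition limit every value. Normexp gave values more than 1.5 times smaller for 53 of the 213 called genes and larger for 1, and the authors' deposited matrix smaller ones for 33, for example -4.83 with normexp and a fitted -8.36 as reported for Tnfrsf26.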

Other observations

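Called genes were spread over the range of levels. Of the 3669 genes with the lowest mean levels 17.4% were higher and 20.4% lower in the NEMO knockout, of the next 3669 genes 25.2% and 28%, of the 3668 after these 18.6% and 29%, and of the 3669 genes with the highest mean levels 14.7% and 31.3%. The share of higher genes was thus lowest and the share of lower genes highest among the most abundant transcripts, while the median difference ran from -0.14 to -0.046 across these bins.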
